A study of Mus musculus with 8 samples.

Results

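The immunity-related GTPases (IRGs) are a family of interferon-induced proteins of the mouse, and 7 of their genes were followed here: Irgm1, Irgm2, Igtp, Iigp1, Ifi47, Tgtp1 and Tgtp2. They were taken by gene symbol from a table of 17364 genes, in which all 7 were found. The RNA came from bone-marrow-derived macrophages (BMDMs), macrophages grown in culture from bone marrow cells, of wild-type mice (4 libraries) or of Sept2C111A mice (4 libraries). The Sept2C111A allele is named for a cysteine-to-alanine change in septin 2, which forms cytoskeletal filaments, and the title of the series concerns S-nitrosylated septin 2 in macrophage inflammation and migration. TNF-α was given to both groups, at 30 ng/ml over 24 h, so no untreated or interferon-treated culture stands beside them. The labels give neither the age nor the number of the mice, nor whether replicates were separate animals or cultures, and the p-values below may therefore reflect technical spread alone.

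IRG proteins are large GTPases that interferons, above all interferon gamma, induce in mouse macrophages. They assemble on the vacuoles that enclose intracellular parasites and bacteria, together with guanylate-binding proteins, and damage them. The regulators Irgm1, Irgm2 and Igtp (also called Irgm3) sit on the membranes of the cell's own organelles and keep the effector IRGs inactive there. The effectors include Iigp1 (Irga6), Ifi47 (Irgd) and the near-identical pair Tgtp1 and Tgtp2 (Irgb6), which load onto pathogen vacuoles.

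Of the 7 genes, 6 lie on mouse chromosome 11 in a pair of clusters (GRCm38, the mm10 build). Irgm1 (48865245 to 48871420), Tgtp1 (48985329 to 48992246), Tgtp2 (49057196 to 49064212) and Ifi47 (49076587 to 49096987) form the first cluster, and Igtp (58199556 to 58207592) and Irgm2 (58214977 to 58222783) belong to the second. Iigp1 lies on chromosome 18, from 60373616 to 60392634. All 7 are annotated as protein-coding. In their GENCODE coding sequences, Tgtp1 and Tgtp2 differed at 4 of 1245 bases, an identity of 99.68%. The next closest pair was Irgm2 and Igtp, at 73.24%, and Iigp1 was closest to Tgtp1, at 64.36%. Reads from the coding sequences of Tgtp1 and Tgtp2 can hardly be told apart at that identity, and the division of reads between them is the work of the authors' counting. The untranslated parts of the transcripts were not compared.

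RefSeq promoters (GRCm38.p6) were examined for 6 of the 7 genes. The chromosome of Iigp1 was left out of this gene-by-gene search, so Iigp1 and its cluster are not in the gene counts below. The shares over all promoters were not limited in this way. The stretches below are shown because Igtp, Irgm2, Tgtp1 and Tgtp2 carried the same pair of interferon motifs in the same arrangement. Capitals mark the gamma-activated site, TTCNNNGAA, and the core of the interferon-stimulated response element, which is GAAA, then any 2 bases, then GAAA again, both known from the promoters of interferon-induced genes. Each stretch is written from 5′ to 3′ on the strand of its gene and ends before the transcription start.

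Igtp (chr11:58199487-58199546, plus strand): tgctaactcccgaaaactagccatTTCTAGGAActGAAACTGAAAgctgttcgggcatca
Irgm2 (chr11:58214878-58214937, plus strand): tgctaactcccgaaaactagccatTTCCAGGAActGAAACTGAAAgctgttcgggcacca
Tgtp1 (chr11:48992299-48992358, minus strand): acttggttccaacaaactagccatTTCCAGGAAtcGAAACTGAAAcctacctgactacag
Tgtp2 (chr11:49064258-49064317, minus strand): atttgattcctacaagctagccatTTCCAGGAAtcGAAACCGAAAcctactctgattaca
Irgm1 (chr11:48871426-48871485, minus strand): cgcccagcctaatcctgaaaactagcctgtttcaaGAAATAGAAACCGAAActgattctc

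In the first 4 the response element core began 11 bases after the first base of the gamma-activated site. This arrangement was searched for after the sequences had been read. On either strand it was found in 5 of 32851 promoters of 250 bases (0.0152%): those of Igtp, Irgm2, Tgtp1, Tgtp2 and the related IRG gene Gm12185. The response element core alone, on either strand, was in 5 of the 6 genes examined and in 2.98% of all promoters. The gamma-activated site, which reads the same on both strands, was in 4 of 6 and in 7.02%. Irgm1 held 2 overlapping copies of the core, whose shared bases appear as a single run of capitals, and no gamma-activated site in this window. Ifi47 had neither motif in the window. A κB form, GGGA, any 2 bases and TTCC, sought on both strands because the cells had received TNF-α, was in 0 of the 6 and in 1.21% of all promoters. A match describes the letters only.

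The deposited values are expected counts, the reads that a model assigns to each gene, with totals of 19543973 to 21288521 per library after rounding. They are given below as CPM, the count scaled to a library of fixed size, on normalized library sizes. A gene without a read in a library lies below 0.140 to 0.159 CPM, the level of 3 counts, for counting error only. Sept2C111A libraries 2 and 3 had fewer genes above 0 (14857 and 14872) than the other 6 libraries (15231 to 15359). The 10 macrophage markers, among them Csf1r and Adgre1, summed to between 26683 and 30819 CPM in the 8 libraries, and 1 of them, the interferon-inducible Fc receptor gene Fcgr1, rose (84.9 ± 11.3 to 193 ± 39.9 CPM, edgeR adjusted p 0.0011). Septin2, the targeted gene, differed by -0.27 on the log2 scale (edgeR adjusted p 0.063), and its base change cannot be seen in gene counts. Of the 12462 genes that passed the filter on low counts, 805, or 6.46%, were called by edgeR at an adjusted p under 0.05, of which 428 (3.43%) were higher and 377 (3.03%) lower in Sept2C111A libraries.

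To compare levels between genes, CPM was divided by the length of the longest protein-coding transcript. Irgm1 and Ifi47 had the most RNA on this scale, at 48.1 ± 5.16 and 44.4 ± 6.56 CPM per kilobase in wild-type libraries (mean ± SD, n = 4, here and below). Irgm1 was above Ifi47 in 8 of 8 libraries, but their ranges over the libraries overlapped. Igtp followed at 30.8 ± 5.01 CPM per kilobase, and its range did not reach that of Ifi47. Irgm2 and Tgtp2, at 16.1 ± 2.09 and 13.8 ± 3.12 CPM per kilobase in wild-type libraries, came next, and the range of Tgtp2 over all 8 libraries reached that of Igtp. Neither was always the higher of the pair: each led in 4 of 8 libraries. Iigp1 was far lower, at 2.72 ± 1.02 CPM per kilobase in wild-type and 5.80 ± 1.73 in Sept2C111A libraries, and Tgtp1 was lowest, at 0.184 ± 0.155 and 0.183 ± 0.215. Every IRG effector and regulator described here except Tgtp1 was therefore measured well above the detection limit in all 8 libraries.

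Between the genotypes, Iigp1 was the only gene of the 7 that passed the edgeR test. It rose 2.13-fold in Sept2C111A libraries, while the other 6 genes did not pass. That is 1 called of 7, and 0 called lower, beside the 6.46% called among all tested genes. The median log2 fold change of the 7 was 0.24, and that of all tested genes 0.0086. All 7 passed the filter on low counts, and 3 of them (Irgm1, Iigp1 and Tgtp2) had an unadjusted p under 0.05, a mark that 24.8% of all tested genes reached.

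**Figure D1:**
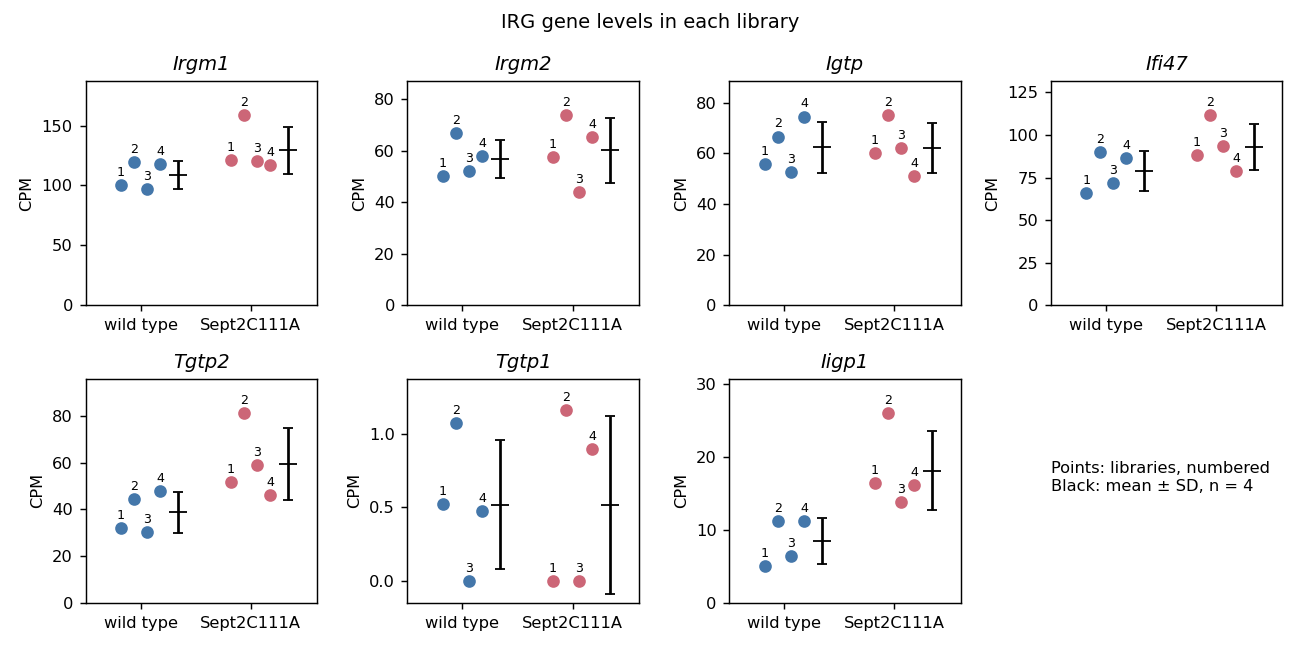
CPM (vertical axis, linear) of the 7 IRG genes in each library, numbered by replicate, for wild type (blue) and Sept2C111A (red); black bars give the mean ± SD over 4 libraries. The groups are apart only for Iigp1, whose wild-type libraries end at 11.2 CPM and whose Sept2C111A libraries begin at 13.8 CPM.

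Among the regulators, Irgm1 measured 100.1, 119.7, 97.1 and 118 CPM in wild-type libraries 1 to 4, and 121, 159, 120.2 and 117 CPM in Sept2C111A libraries 1 to 4. Sept2C111A libraries 1, 3 and 4 thus lay beside wild-type libraries 2 and 4, and Sept2C111A library 2 stood above all others. The means were 109 ± 11.7 and 129 ± 19.7 CPM, and the log2 fold change was 0.25 (SE 0.11, 95% interval 0.01 to 0.49), with an edgeR adjusted p of 0.18. Leaving out Sept2C111A library 2 gave 0.14, and leaving out libraries 2 and 3 of that genotype gave 0.13. By exact permutation of log2 CPM, two-sided here and below, p was 0.0857, where 0.0286 is the smallest that 4 against 4 libraries allow.

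Irgm2 measured 50.2, 66.7, 52.2 and 57.9 CPM in wild-type and 57.6, 73.8, 44.0 and 65.3 CPM in Sept2C111A libraries. The Sept2C111A libraries held both the lowest and the highest of the 8 values. The log2 fold change of 0.08 (SE 0.14) had a 95% interval of -0.23 to 0.40 and an edgeR adjusted p of 0.77 (exact permutation p = 0.80). It was -0.026 without Sept2C111A library 2.

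Igtp measured 55.8, 66.7, 52.5 and 74.6 CPM in wild-type and 60.1, 75.1, 62.1 and 51.0 CPM in Sept2C111A libraries. The ranges coincided almost entirely, at means of 62.4 ± 10.1 and 62.1 ± 9.92 CPM. Its log2 fold change was -0.0076 (SE 0.13, 95% interval -0.30 to 0.28; edgeR adjusted p 0.98), so a change as large as that of Iigp1 lies outside the interval. The sign turned positive in the absence of wild-type library 2 (0.032), wild-type library 4 (0.094), Sept2C111A library 1 (0.0083) and Sept2C111A library 4 (0.081), each left out alone, and under limma voom with sample weights, at 0.062.

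Among the effectors, Ifi47 measured 66.0, 90.3, 71.8 and 86.6 CPM in wild-type and 87.9, 112, 93.2 and 78.9 CPM in Sept2C111A libraries. Sept2C111A libraries 1 and 4 lay within the wild-type range, and libraries 2 and 3 above it. The log2 fold change was 0.24 (SE 0.12, 95% interval -0.03 to 0.51), with an edgeR adjusted p of 0.25. Leaving out Sept2C111A library 2 gave 0.14, and leaving out libraries 2 and 3 of that genotype gave 0.085.

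Tgtp2 measured 32.1, 44.6, 30.2 and 47.7 CPM in wild-type and 51.5, 81.2, 58.8 and 46.0 CPM in Sept2C111A libraries. The groups met at a single point, where Sept2C111A library 4 lay just under wild-type library 4. The means of 38.7 ± 8.76 and 59.4 ± 15.5 CPM correspond to 0.62 on the log2 scale (SE 0.19, 95% interval 0.20 to 1.03; edgeR adjusted p 0.076; exact permutation p = 0.0571). Without Sept2C111A library 4 it passed (0.73, adjusted p 0.022), and it also passed in DESeq2 (adjusted p 0.019) and in limma voom with sample weights (adjusted p 0.033). It was 0.33 on the log2 scale without Sept2C111A libraries 2 and 3.

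Tgtp1 was assigned 10.56, 23.26, 0 and 9.55 expected counts in wild-type and 0, 22.1, 0 and 19.19 in Sept2C111A libraries. At 0 counts a level up to 0.141, 0.142 or 0.153 CPM is possible in wild-type library 3 and Sept2C111A libraries 1 and 3. Its log2 fold change was -0.028 with an SE of 0.96, an interval of -2.15 to 2.09 that leaves its direction undetermined, and it turned positive when wild-type library 2 (0.61) or Sept2C111A library 1 (0.40) or 3 (0.38) was left out. Counting the pair as a single gene gave 0.61 on the log2 scale (SE 0.19; edgeR adjusted p 0.080), which passed, of all single libraries left out, without Sept2C111A library 4 (0.72, adjusted p 0.025).

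Iigp1, the effector on chromosome 18, measured 5.10, 11.2, 6.46 and 11.2 CPM in wild-type and 16.5, 26.0, 13.8 and 16.1 CPM in Sept2C111A libraries. Every Sept2C111A library lay above every wild-type library, as was the case, in either direction, for 16.9% of all tested genes (8.47% higher and 8.47% lower). Its means were 8.49 ± 3.18 and 18.1 ± 5.4 CPM, and its log2 fold change was 1.09 (SE 0.26, 95% interval 0.51 to 1.67) at an edgeR adjusted p of 0.034 (exact permutation p = 0.0286). The call was lost when wild-type library 1 was left out (0.91, adjusted p 0.093), when wild-type library 3 was (0.98, adjusted p 0.12) and when Sept2C111A library 2 was (0.87, adjusted p 0.0998). It was also lost without Sept2C111A libraries 2 and 3 together (0.94, adjusted p 0.066) and with scaling to library totals alone (1.03, adjusted p 0.054).

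Summed over genes, the effectors reached 103.7, 147, 109 and 146 CPM in wild-type and 156, 220.0, 166 and 142 CPM in Sept2C111A libraries. The regulators reached 202 to 253 CPM in wild-type and 226 to 308 CPM in Sept2C111A libraries. Effector CPM over regulator CPM was 0.503 to 0.584 in wild-type libraries and 0.608 to 0.733 in Sept2C111A libraries, which did not overlap. No test was run on these sums, and how often ratios of other gene sets separate the genotypes was not computed. Single tested genes alone did so in 16.9% of cases. Gm12250, named further below as an effector, was left out of the effector sum, and its addition was not tried. The ratio compares reads, not molecules, since the genes differ in length.

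**Figure D2:**
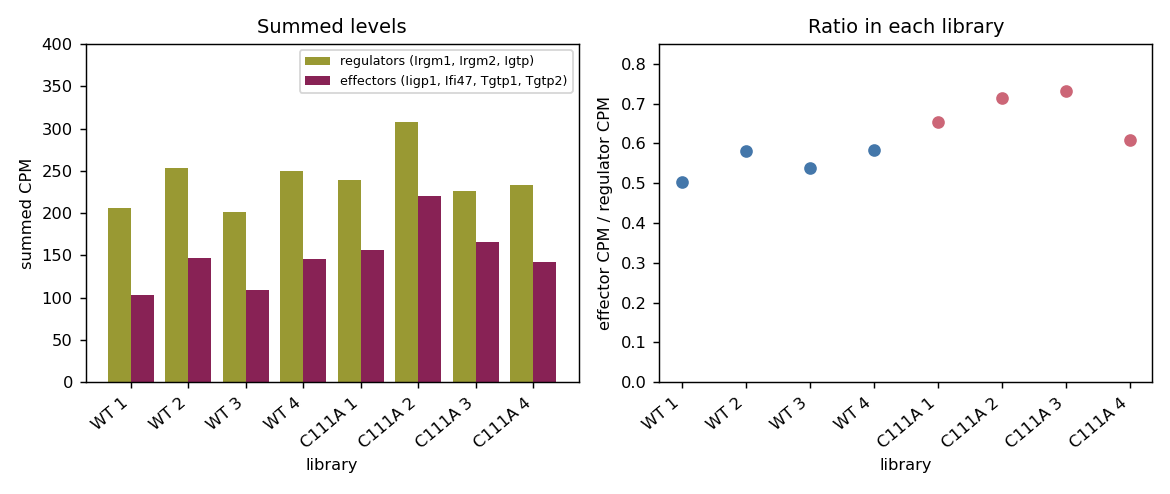
Left, summed CPM of the 3 regulator and 4 effector IRG genes in each library; right, effector CPM divided by regulator CPM in each library, wild type in blue and Sept2C111A in red. The ratio is at most 0.584 in wild-type and at least 0.608 in Sept2C111A libraries, while the summed levels overlap between the genotypes. Ratios of other gene sets were not computed for comparison, and Gm12250 is not in the sums.

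Whether 2 IRG genes changed unequally was tested for all 15 pairs of the 6 genes other than Tgtp1, as the difference in log2 CPM within each library. In 8 pairs the groups did not overlap (exact two-sided permutation p = 0.0286 each), but 0 pairs passed after adjustment over the 15, at which these 8 had an adjusted p of 0.0536. As 0.0286 is the smallest p that this test allows, 8 pairs at that value could not pass, whatever the size of their differences. The 15 pairs are made of 6 genes and so share values, and the share of non-overlapping pairs among other genes was not computed. Igtp stood 0.70 above Tgtp2 on the log2 scale in wild-type libraries and 0.08 above it in Sept2C111A libraries, a difference of -0.62 (SE 0.090) between the genotypes. In single libraries this distance was 0.58 to 0.79 in wild type and -0.11 to 0.22 in Sept2C111A. Iigp1 was apart in the same way from Irgm1, Irgm2, Igtp and Ifi47, with differences of 0.88, 1.06, 1.13 and 0.88 between the genotypes, as were Igtp and Ifi47, Igtp and Irgm1, and Ifi47 and Tgtp2. Iigp1 and Tgtp2 overlapped (difference 0.51, exact permutation p = 0.0857, adjusted p 0.12).

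The genes also varied together within a genotype. For all 6 genes other than Tgtp1, wild-type libraries 1 and 3 lay below wild-type libraries 2 and 4, an order found in 16.4% of all tested genes. Sept2C111A library 2 was the highest of the 8 libraries for all 6, as it was for 10.1% of all tested genes. The other Sept2C111A libraries had no common order: library 3 was lowest of its genotype for Irgm2 and Iigp1, and library 4 for Irgm1, Igtp, Ifi47 and Tgtp2. In the same libraries the 10 fibroblast and smooth muscle markers, collagen genes among them, summed to 5682, 4599, 6031 and 5599 CPM in wild-type and 4532, 3592, 3610 and 4319 CPM in Sept2C111A libraries. They were thus lower in every Sept2C111A library than in any wild-type library, 3 of the 9 tested markers fell (Col1a1, Acta2 and Tagln), and Lum and Thy1 stayed under 1 CPM in all 8. Their part in the IRG values was not tested, and fewer cells of a type cannot be told from less RNA per cell in whole cultures.

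**Figure D3:**
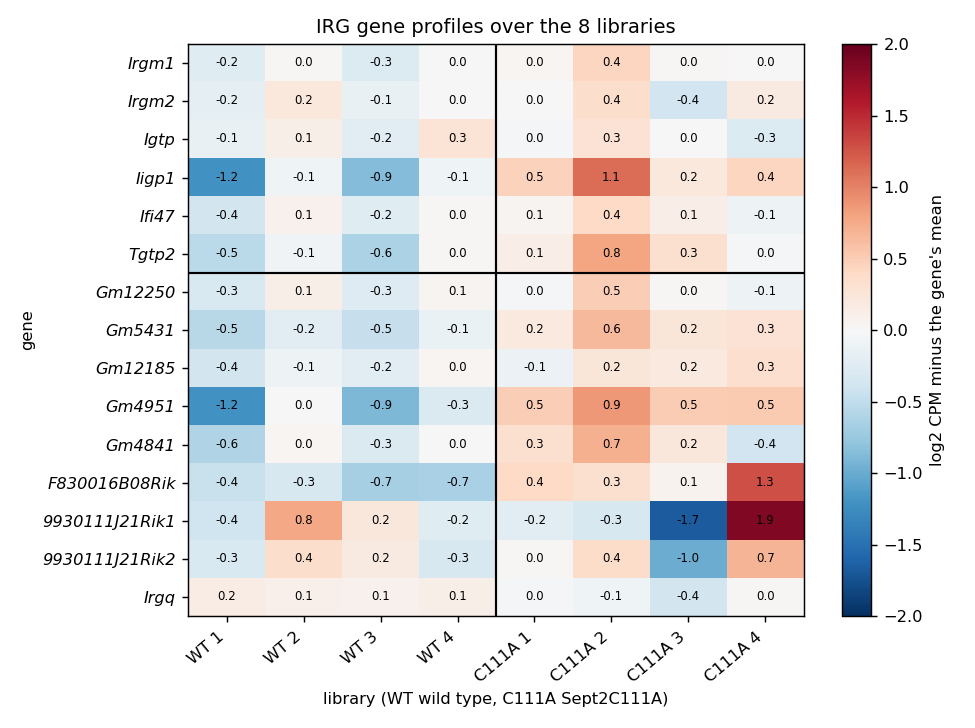
Log2 CPM of each gene minus its own mean over the 8 libraries (colour and printed value), for the 6 IRG genes above Tgtp1 in level (upper block) and 9 related genes (lower block); columns are libraries, with wild type left of the line. Sept2C111A library 2 is the highest column for all 6 genes of the upper block.

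T cells and NK cells are the usual source of interferon gamma. Their marker gene Cd3d was at 0 in all 4 wild-type and in Sept2C111A libraries 2, 3 and 4, and Cd3g at 0 in 6 of 8 libraries. Of the 10 listed markers 7 were in the table, and 6 of these stayed under 1 CPM in every library. The exception was Cd4, which rose from a mean of 14.5 to 21.1 CPM, so that the summed level was 15.95 to 16.8 CPM in wild-type and 19.4 to 24.8 CPM in Sept2C111A libraries. Ifng was looked up but not found in the table, so it has no value here, and Ifnb1 had at most 1 count in a library.

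Of 10 listed IRG genes outside the 7, 9 were tested, and 3 rose, 0 fell and 6 did not pass, with a median log2 fold change of 0.34. Beside this count and those of the lists below, 3.43% of all tested genes were called higher and 3.03% lower. Gm5431 (Irgb9b8), on chromosome 11 beside Irgm1, measured 20.3, 25.8, 21.5 and 27.0 CPM in wild-type and 34.1, 46.5, 35.2 and 36.2 CPM in Sept2C111A libraries, and its rise (log2 fold change 0.68, SE 0.12, edgeR adjusted p 0.0090) passed without any single library. Gm4951 (Ifgga2), near Iigp1 on chromosome 18, measured 3.77, 8.96, 4.72 and 7.25 CPM in wild-type and 12.5, 16.2, 12.6 and 12.7 CPM in Sept2C111A libraries (log2 fold change 1.13, SE 0.22, adjusted p 0.016). F830016B08Rik (Ifgga4), in the same cluster, rose from 3.17 ± 0.390 to 6.95 ± 2.92 CPM (log2 fold change 1.14, adjusted p 0.025). In both of these the groups did not overlap. The call of Gm4951 was lost when wild-type library 3 (adjusted p 0.064) or Sept2C111A library 2 (0.056) was left out, and that of F830016B08Rik without wild-type library 1, 3 or 4 (0.074, 0.090 and 0.073).

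By position, all 4 tested IRG genes of chromosome 18 had a positive log2 fold change, from 0.51 to 1.14, and 3 of them were called. The 11 tested on chromosome 11 ran from -0.03 to 0.68, and 1 was called. Among all 12462 tested genes, 6460 had a positive log2 fold change and 3.43% were called higher, so 1 of 11 is near that share. No test compared the chromosomes. Gm12250 (Irgb10), an effector that lies next to Igtp, measured 33.99 ± 5.05 and 39.2 ± 7.85 CPM (log2 fold change 0.20, adjusted p 0.40). Irgq, a distant relative on chromosome 7, measured 36.9 ± 0.729 and 31.6 ± 3.72 CPM (log2 fold change -0.22, adjusted p 0.13). These clusters hold repeated, similar genes, and 9930111J21Rik1 varied most among them, from 1.98 CPM in Sept2C111A library 3 to 23.6 CPM in library 4.

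The guanylate-binding proteins (GBPs), which act with IRGs on vacuoles, split in both directions. Of 9 tested genes in that list, Gvin1 among them, 3 rose, 1 fell and 5 did not pass, and the median log2 fold change was 0.014. Among all tested genes, 3.43% rose and 3.03% fell by the same test. Gbp6 rose from 17.2 ± 4.03 to 31.8 ± 7.47 CPM (0.89 on the log2 scale, SE 0.18, edgeR adjusted p 0.019) and Gbp9 from 6.16 ± 1.01 to 10.4 ± 2.8 CPM (adjusted p 0.036). Gbp8, a scarce transcript, rose from 0.296 ± 0.159 to 1.04 ± 0.234 CPM (adjusted p 0.015). Gbp5 fell from 184 ± 21.4 to 109 ± 27.2 CPM (-0.75 on the log2 scale, SE 0.16, adjusted p 0.021). The most abundant, Gbp2, measured 195 ± 20.3 and 159 ± 25.0 CPM and did not pass (adjusted p 0.13). None of the 4 calls held without wild-type library 3, where the adjusted p was 0.064 to 0.12, and 3 of them, those of Gbp6, Gbp8 and Gbp9, were lost without wild-type library 1 (0.063 to 0.11). Gbp5 and Gbp9 were also lost without wild-type library 2 or 4 (0.058 to 0.065), and Gbp8 and Gbp9 without Sept2C111A library 2 (0.052 and 0.084). Gbp8 was not called without Sept2C111A libraries 2 and 3 either (0.084), nor Gbp9 with scaling to library totals only (0.062). The identity of their sequences was not computed here, and reads shared between similar genes would make the separate values uncertain.

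**Figure D4:**
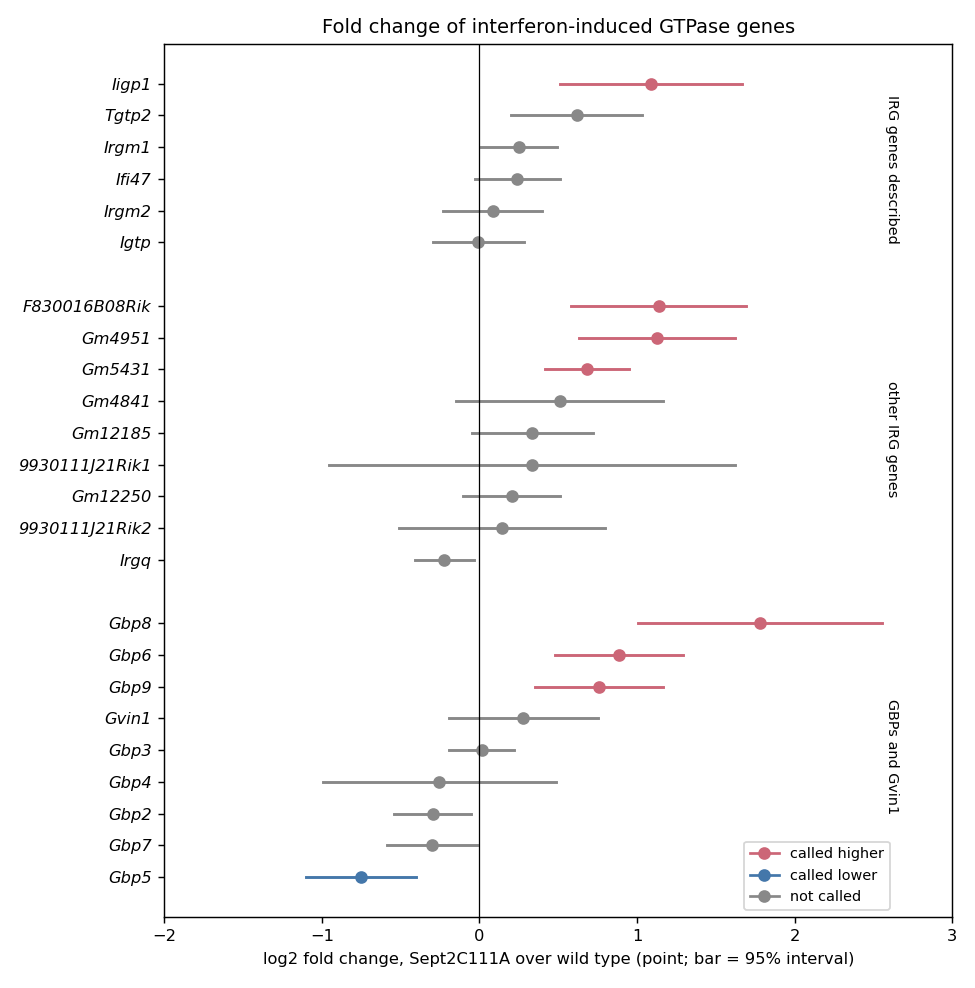
Log2 fold change of Sept2C111A over wild type (points) with its 95% interval (bars) for 6 IRG genes, 9 other IRG family genes and 9 genes of the GBP list; red was called higher, blue lower and grey not called. Iigp1, Gm4951 and F830016B08Rik lie near 1.1, and Gbp5 lies at -0.75.

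Genes that carry the interferon signal to IRG promoters also moved in both directions. In the interferon gamma list, 14 genes were tested, of which 2 rose, 2 fell and 10 did not pass (median log2 fold change -0.010). Irf8, a macrophage transcription factor of the IRF family, rose from 116 ± 3.5 to 157 ± 14.9 CPM (edgeR adjusted p 0.0070). Irf1, an interferon-induced transcription factor, fell from 349.7 ± 16.8 to 275 ± 31.9 CPM (adjusted p 0.037), and Socs3, a feedback inhibitor of cytokine receptors, from 90.7 ± 4.35 to 40.3 ± 9.34 CPM (adjusted p 0.0011). The receptor genes Ifngr1 and Ifngr2 had log2 fold changes of 0.023 and 0.068 and did not pass. Irf1 was no longer called once any of the 4 wild-type libraries, or Sept2C111A library 1, was left out (adjusted p 0.055 to 0.10).

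In the type I interferon list, 15 genes were tested, of which 2 rose, 0 fell and 13 did not pass (median log2 fold change 0.23). Irf7, the factor that amplifies type I interferon, measured 63.1, 84.9, 64.3 and 93.6 CPM in wild-type and 305, 507, 386 and 297 CPM in Sept2C111A libraries (log2 fold change 2.29, SE 0.19, edgeR adjusted p 0.00028). Irf7 thus shares with the IRG genes the low wild-type libraries 1 and 3 and the high Sept2C111A library 2. Irf9, part of the factor that binds the response element, rose from 54.5 ± 4.60 to 68.1 ± 5.89 CPM (adjusted p 0.043), a call that did not hold when Sept2C111A library 2, or any wild-type library but the second, was left out (0.11 to 0.14), nor with scaling to library totals only or without Sept2C111A libraries 2 and 3 (0.11 each). Without Sept2C111A library 4, 5 genes of the list rose. Leaving out that library also raised the share called higher among all tested genes, from 3.43% to 8.69%.

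IRG loading onto membranes needs the ATG8 conjugation system. Its genes were listed together with the autophagy genes Becn1, Ulk1 and Sqstm1, and 0 of the 14 tested genes were called by edgeR. An unadjusted edgeR p under 0.05 was reached by 4 of them, beside 24.8% of all tested genes. DESeq2 called 2 higher and 1 lower, as did edgeR without Sept2C111A library 4. Of all genes tested, these settings called 11.7% and 16.5%. Sqstm1, an autophagy receptor and the most abundant of them, measured 2323 ± 64.9 and 1998 ± 15.7 CPM, at an adjusted p of 0.054. Of 10 tested genes for vacuole recognition and ubiquitin tagging, 2 rose: Lgals3, a galectin that marks broken vacuoles (2029.6 ± 104 to 2839.6 ± 518 CPM, adjusted p 0.033), and Pik3c3, the class III phosphatidylinositol kinase (32.7 ± 1.48 to 40.7 ± 4.18 CPM, adjusted p 0.045). Both calls were lost with each wild-type library left out in turn (adjusted p 0.078 to 0.14) and with Sept2C111A library 2 left out (0.096 and 0.13), and that of Pik3c3 also without Sept2C111A library 1 or 3 (0.060 and 0.072). Pik3c3 also failed with upper quartile factors (0.055), library totals only (0.055), limma voom (0.052) and without Sept2C111A libraries 2 and 3 (0.20).

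The tested genes outside the 7 whose profile lay nearest to each IRG gene were found by the root mean square distance of centred log2 CPM over the 8 libraries, among 5817 candidates. This distance includes the difference between the genotypes, so a gene picked as near shares the direction of change by the way it was picked. Nearest to Iigp1, which rose, were Ifi208, a gene of the interferon-induced Ifi200 family, at 0.11, and Gm4951, the neighbour of Iigp1, at 0.16. Nearest to Tgtp2 were Oasl1, an interferon-induced gene of the OAS family (0.091), and Ifi205 (0.11). Ifi47 lay nearest to Gm12250, at 0.065, and to Fgd2 (0.076), and Irgm1 to Slfn8 (0.030) and Adar, the RNA-editing enzyme (0.062). Irgm2 was nearest to Rnf213 (0.045) and Gm1966 (0.052), and Igtp to the zinc finger genes Zfp956 and Zfp691 (0.088 each). The closest pair within the 7 was Irgm1 and Ifi47, at a distance of 0.075, with 10 other genes nearer to Irgm1 and 1 nearer to Ifi47. Iigp1 was 0.35 from Tgtp2, its nearest fellow gene, and 19 other genes were nearer. For Irgm2, Tgtp2 and Igtp, 409, 70 and 44 other genes were nearer than the closest fellow gene.

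**Figure D5:**
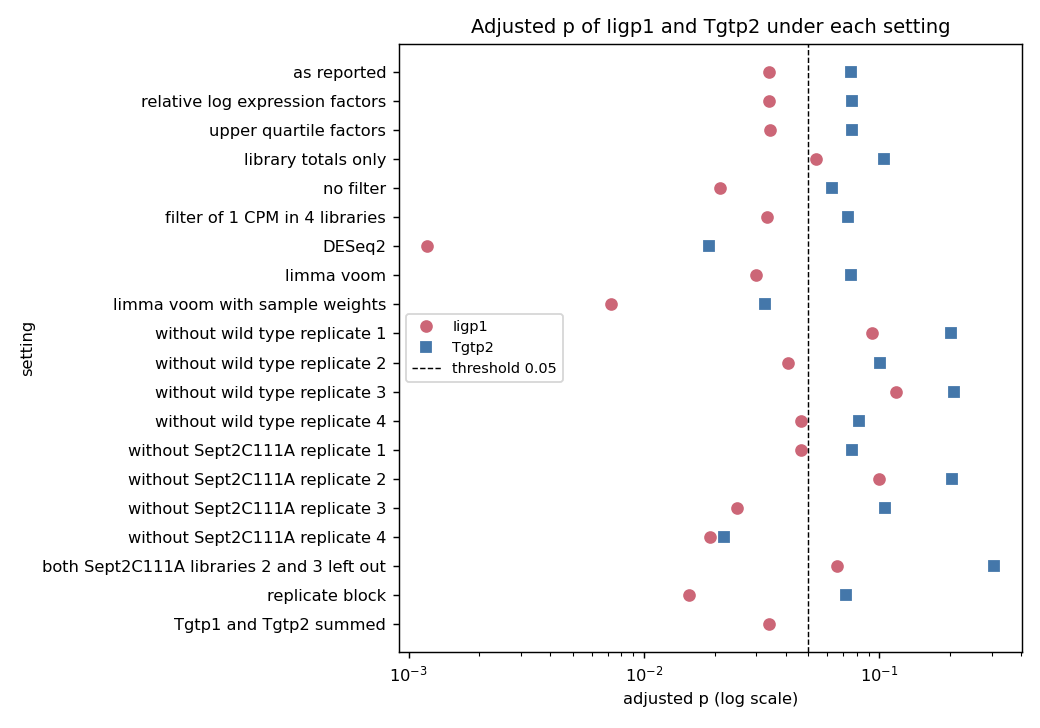
Adjusted p (horizontal axis, log scale) of Iigp1 (red circles) and Tgtp2 (blue squares) as reported and under each alternative setting; the dashed line is the threshold of 0.05, and Tgtp2 has no value where it was summed with Tgtp1. Iigp1 ranges from 0.0012 to 0.12 and Tgtp2 from 0.019 to 0.31.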

How the data were processed

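RNA was enriched on oligo(dT) beads, per the labels' protocols. The authors deposited expected counts for each gene symbol. Bowtie2, RSEM 1.3.1, DESeq2 1.4.5 and the mm10 build appear, without their roles, in the submitters' processing notes. The annotation is not given in the sources used here, nor is the strand setting. Expected counts were rounded, filtered with filterByExpr (minimum count 10), TMM-normalized and tested over all genes with edgeR 4.0.16 (quasi-likelihood F test, R 4.3.3, group as the only term, Benjamini-Hochberg). Limma 3.58.1 and DESeq2 1.42.0 were alternatives. Log2 CPM used a prior count of 2, intervals are 95%, and SE is the log2 fold change over the square root of F. The permutation tests were exact. Transcript lengths and coding sequences are GENCODE's for GRCm38; a protein motif search was not run.

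The genes, lists and tests were chosen with earlier results of these data known. Genes named are the 7, up to 5 called genes of each list (otherwise its most abundant), and the 2 nearest profiles of each gene with at least 2 CPM and a log2 SD of 0.15; other names, among them Gbp2, Gm12250, Irgq, Ifngr1 and 9930111J21Rik1, were chosen after their values were seen. On simulated counts for this comparison (12386 genes tested), 96 of 100 genes changed by 1 on the log2 scale were recovered and 71 of 100 changed by 0.5, with 7 false calls. Every pair of libraries differed by more than sampling noise, with a mean chi-square per gene of at least 3.87. The values of 1 called gene of the interferon gamma list are not reported here.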

Additional observations from a re-analysis of the deposited data

Results flagged for a closer look

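In 5 of the 70 groups of 4 libraries checked (35 named genes in both genotypes) the extreme library stood far from the other 3, by a test that flags about 1 in 20 groups by chance. All 5 were Sept2C111A library 2. Irgm1 was at 159 CPM there and at 117 to 121 CPM in the other 3 libraries. Gm12250 was at 50.8 CPM against 33.8 to 36.7, and Gm4951 at 16.2 CPM against 12.5 to 12.7. Slfn8 was at 159 CPM against 116 to 117, and Adar at 137 CPM against 107 to 110.4. These genes have similar profiles, and Slfn8 and Adar were named because they resemble Irgm1, so the 5 are not independent of each other.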

How the results depend on the processing

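Of the 7 genes, edgeR called 1 higher. The number was 0 with scaling to library totals only, without Sept2C111A libraries 2 and 3, and at an adjusted p under 0.01. It was 2 in DESeq2, in limma voom with sample weights, and at an adjusted p under 0.1. Leaving out single libraries gave 0 to 2, and 0 genes were called lower under each alternative run. The log2 fold change of Iigp1 stayed positive under all 21 alternatives (0.87 to 1.28; adjusted p 0.0012 to 0.12); its call was lost with library totals only (1.03), without Sept2C111A libraries 2 and 3 (0.94), at a threshold of 0.01 (1.09) and in 3 of the 8 cases of a library left out (range 0.87 to 1.26). That of Tgtp2 was positive throughout and passed in DESeq2 (0.62), in limma voom with sample weights (0.69) and at a threshold of 0.1 (0.62); with a library left out it ran from 0.43 to 0.74, and with Tgtp1 added from 0.42 to 0.73. Igtp turned positive in limma voom with sample weights (0.062), and with a library left out ran from -0.11 to 0.094. With a library left out, Irgm2 ran from -0.026 to 0.21 and Tgtp1 from -0.75 to 0.61. Irgm1 (0.13 to 0.31) and Ifi47 (0.085 to 0.32) stayed positive and uncalled in all 21, lowest without Sept2C111A libraries 2 and 3. The cause of these changes was not tested, though a library left out also leaves fewer samples. Among all genes the number called was 805, with 281, 475, 266 and 376 after removal of wild-type libraries 1 to 4 in turn, 361 and 2077 after removal of Sept2C111A library 2 or 4, 492 after removal of Sept2C111A libraries 2 and 3, 1402 in DESeq2 and 1343 in limma voom with sample weights.

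The labels do not state that replicate numbers pair the libraries, so the main fit had no block. Deviations of same-numbered libraries had correlations of 0.14, 0.096, -0.02 and -0.24, and 1 of 4 wild-type libraries correlated best with its own number. Such correlations cannot settle whether the libraries were paired. With the replicate block 494 genes were called, Iigp1 among them (log2 fold change 1.12, adjusted p 0.016), and Tgtp2 was not (0.61, adjusted p 0.072). Under the block the calls of Gbp8, Lgals3 and Pik3c3 were lost (adjusted p 0.054, 0.064 and 0.11). Tgtp1, at most 23.26 counts in a library, has few counts and a near-identical copy, and which of these limits its value was not tested.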
